A study of Homo sapiens with 9 samples.

Results

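The genes described here were 38 interferon-stimulated genes led by IFI16, listed by name as known targets of interferon. All 38 were found among the 19869 genes measured in H460-ERT2-RUNX3-K94/171R cells. In H460-vec and H460-ERT2-RUNX3 cells, measured over 24331 genes in a separate table, only IFI16, ISG15, IFI44 and IFI44L could be named, 4 of the 38, because symbols were used there for 1144 genes of chromosome 1. Of the 1081 of these with a strand in the GENCODE annotation, 1072 lie on the plus strand, as do these 4, while IFI6, AIM2, GBP1 and GBP2 lie on the minus strand of the same chromosome and had no symbol. The other 34 genes were therefore followed in a single line.

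NCI-H460 is a large cell lung cancer line grown from a pleural effusion, with activated K-RAS and inactivated RUNX3. H460-vec cells carried the vector alone. H460-ERT2-RUNX3 cells expressed wild-type RUNX3, a transcription factor, fused to ERT2, a form of the estrogen receptor hormone-binding domain that lets the protein into the nucleus once 4-hydroxytamoxifen (4-OHT) is added. H460-ERT2-RUNX3-K94/171R cells, written K94/171R below, expressed the same fusion with a RUNX3 mutant that does not bind the chromatin protein BRD2. Cells of the 3 lines were kept without serum for 24 h, given 10% serum with 1 μM 4-OHT, and sequenced as mRNA at 0, 8 and 16 h. There was 1 library for each line and time, 9 in all, and no replicates, so no difference was tested. The labels mark the 0 h libraries as control and the later ones as TAM. The general treatment text also names serum without 4-OHT, but the study describes the sequenced 8 and 16 h cells as treated with 4-OHT. The 0 h cells had received neither serum nor 4-OHT. A change within a line thus combines serum, 4-OHT and the fusion protein, and H460-vec cells had the first 2 without the third. Each construct was represented by 1 stable line, and whether a line was a single clone is not given in the sources used here. Levels are in FPKM, the sequenced fragments of a gene relative to its length and to all mapped fragments of the library. A change is log2 of the FPKM at 8 or 16 h over that at 0 h, with 0.05 added to both, and genes changed by at least 2 in either direction were called.

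Interferons are secreted proteins that bind receptors linked to the kinases JAK1, JAK2 and TYK2. The kinases phosphorylate STAT proteins. A complex that contains STAT2 and IRF9 binds the interferon-stimulated response element (ISRE), and STAT dimers bind the gamma-activated sequence (GAS). Many of the target genes encode antiviral proteins, sensors of foreign nucleic acid or parts of antigen presentation, and some are transcribed at a basal level in tumor cells. IFI16 belongs to the HIN-200 family, binds DNA in the nucleus and cytoplasm, and acts both as a DNA sensor and as a regulator of transcription and cell growth.

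The 4 genes named in all 3 lines lie on the plus strand of chromosome 1. In hg19, IFI16 (XLOC_000798) was at chr1:158979682-159024945, ISG15 (XLOC_000009) at chr1:948847-949919, IFI44 (XLOC_000477) at chr1:79115477-79129763 and IFI44L (XLOC_000476) at chr1:79086088-79111830, so that IFI44L and IFI44 are neighbours. The 250 bases before their RefSeq starts (GRCh38.p14) are shown because these genes carry the comparison between lines. Capitals mark 3 searched patterns on either strand, an ISRE-like core (GAAANNGAA), a GAS pattern (TTCNNNGAA) and RUNX letters (TGTGGT or TGCGGT). IFI16 has 2 starts in the RefSeq table and both are given, and of 2 overlapping windows of IFI44 the upstream one is given.
IFI16, chr1:159009657-159009906, plus strand: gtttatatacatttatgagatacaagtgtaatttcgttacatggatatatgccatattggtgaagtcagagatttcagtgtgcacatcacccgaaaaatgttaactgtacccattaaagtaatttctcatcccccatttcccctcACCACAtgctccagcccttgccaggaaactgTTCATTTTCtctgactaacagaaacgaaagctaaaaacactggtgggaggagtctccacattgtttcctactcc
IFI16, chr1:159008741-159008990, plus strand: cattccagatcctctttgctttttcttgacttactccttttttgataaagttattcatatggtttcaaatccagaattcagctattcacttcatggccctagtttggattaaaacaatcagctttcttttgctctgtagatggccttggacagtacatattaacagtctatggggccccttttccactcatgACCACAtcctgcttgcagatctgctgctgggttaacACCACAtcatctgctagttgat
ISG15, chr1:1013247-1013496, plus strand: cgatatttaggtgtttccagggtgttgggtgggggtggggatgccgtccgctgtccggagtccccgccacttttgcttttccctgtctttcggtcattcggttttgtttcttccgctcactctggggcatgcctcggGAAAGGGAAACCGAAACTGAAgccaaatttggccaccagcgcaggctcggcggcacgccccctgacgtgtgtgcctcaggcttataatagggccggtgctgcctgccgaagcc
IFI44, chr1:78649539-78649788, plus strand: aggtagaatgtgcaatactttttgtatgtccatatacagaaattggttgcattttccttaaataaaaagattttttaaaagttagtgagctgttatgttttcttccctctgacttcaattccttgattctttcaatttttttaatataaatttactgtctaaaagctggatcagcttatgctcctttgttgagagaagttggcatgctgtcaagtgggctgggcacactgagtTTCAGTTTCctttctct
IFI44L, chr1:78620198-78620447, plus strand: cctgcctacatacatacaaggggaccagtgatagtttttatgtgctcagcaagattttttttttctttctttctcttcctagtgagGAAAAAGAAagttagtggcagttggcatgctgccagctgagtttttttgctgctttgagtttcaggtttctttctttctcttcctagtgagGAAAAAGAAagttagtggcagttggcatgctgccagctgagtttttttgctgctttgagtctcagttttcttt
The ISG15 window held 3 overlapping matches of the ISRE-like core, starting 113, 107 and 101 bases before the start. IFI44L held 2, at 164 and 73 bases, IFI44 held 1 at 17 bases, and the first IFI16 window held 1 at 74 bases. RUNX letters were in both IFI16 windows, once in the first, 105 bases before the start, and at 58 and 22 bases in the second. The windows of ISG15, IFI44 and IFI44L held no RUNX letters, and none of the 4 genes held the GAS pattern. Promoters were listed for 31 of the 38 genes. Of these, 21 (67.7%) held the ISRE-like core, against 8.41% of 27305 genes in the table, 9 (29.0%) held the GAS pattern, against 8.09%, and 6 (19.4%) held RUNX letters, against 19.3%. A match of letters is a description of sequence and not a measured binding site.

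At 16 h H460-ERT2-RUNX3 cells had the highest IFI16 and ISG15 levels of the 9 libraries and the lowest IFI44L and IFI44 levels. With wild-type RUNX3, IFI16 had an FPKM of 58.7, 139 and 475 at 0, 8 and 16 h. In H460-vec cells it had 43.8, 39.9 and 39.5, and in K94/171R cells 20.9, 21.8 and 18.3. The lines differed at 0 h before any treatment, by 1.34-fold between H460-ERT2-RUNX3 and H460-vec cells, whereas K94/171R levels come from the other table, which was normalized separately. The change of IFI16 in H460-ERT2-RUNX3 cells was 1.24 at 8 h and 3.01 at 16 h, a rise past the threshold at the later time. The corresponding values were -0.13 and -0.15 in H460-vec cells and 0.06 and -0.19 in K94/171R cells. At 16 h the IFI16 level in H460-ERT2-RUNX3 cells was 12.0-fold that in H460-vec cells under the deposited scaling. The FPKM sums of these libraries were 780952 and 641519, and the ratio was not rescaled for them. In RNA from whole cultures, more cells expressing a gene and more RNA per cell cannot be told apart.

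ISG15, a ubiquitin-like protein that is conjugated to other proteins, had an FPKM of 4.42, 5.46 and 17.6 at 0, 8 and 16 h in H460-ERT2-RUNX3 cells. It had 5.28, 5.46 and 8.03 in H460-vec cells and 5.31, 5.81 and 7.57 in K94/171R cells. In each line the 16 h library was the highest. The 16 h change was 1.98 in H460-ERT2-RUNX3 cells, just short of the threshold, 0.60 in H460-vec cells and 0.51 in K94/171R cells. The difference between the first 2 changes, a measure chosen after the values had been seen, was 1.38. When the FPKM of each library was rescaled to the same sum, the change in H460-ERT2-RUNX3 cells was 1.49 and the difference 0.996.

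IFI44L, an interferon-induced protein related to IFI44, had an FPKM of 5.39, 4.67 and 1.29 at the 3 times in H460-ERT2-RUNX3 cells. The libraries of the other lines lay between 5.48 and 6.06 (H460-vec) and between 6.31 and 6.91 (K94/171R). The 16 h change of -2.02 in H460-ERT2-RUNX3 cells passed the threshold, although not with a pseudocount of 1 (-1.48), and those of 0.14 and 0.08 in H460-vec and K94/171R cells did not. IFI44, its neighbour, had an FPKM of 17.7, 13.1 and 10.9 in H460-ERT2-RUNX3 cells, 23.4, 18.5 and 25.2 in H460-vec cells and 26.1, 21.1 and 29.3 in K94/171R cells. Its level was lower at 8 h than at 0 h in every line, and at 16 h it was below the 0 h level in H460-ERT2-RUNX3 cells, with a change of -0.70, while the changes in H460-vec and K94/171R cells were 0.11 and 0.17. When the FPKM of each library was rescaled to the same sum, the 3 values of IFI44 became -1.19, 0.00 and 0.26.

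**Figure D1:**
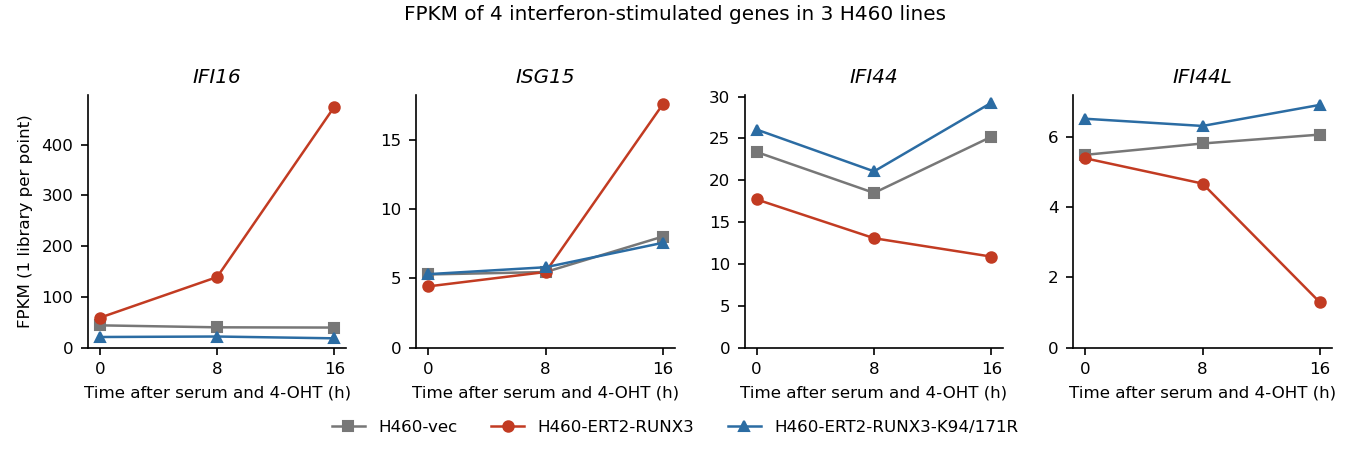
FPKM (vertical axes, from 0, a different scale in each panel) of IFI16, ISG15, IFI44 and IFI44L at 0, 8 and 16 h after serum and 4-OHT in H460-vec, H460-ERT2-RUNX3 and K94/171R cells, with 1 library per point. At 16 h H460-ERT2-RUNX3 cells had the highest IFI16 (475) and ISG15 (17.6) and the lowest IFI44 (10.9) and IFI44L (1.29).

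Many genes moved by 16 h after activation of wild-type RUNX3, and the 4 genes have to be read against them. There, 1 of the 4 genes (IFI16) was called up, against 5.03% of all genes, and 1 (IFI44L) was called down, against 5.11%. With a threshold of 1, IFI16 was up at 8 h in this line, when 4.4% of all genes were up and 5.09% down, and at 16 h IFI16 and ISG15 were up, against 14.3%, and IFI44L down, against 14.9%. None of the 4 was called at 8 h in this line, when 0.941% of all genes were called up and 0.81% down. None was called in H460-vec cells, with 0.506% of genes up and 0.448% down at 8 h, and 0.645% up and 0.448% down at 16 h. Among 11930 genes whose higher library of the pair reached an FPKM of 1 in H460-ERT2-RUNX3 cells, the 16 h change of IFI16 ranked 436 from the highest and that of ISG15 ranked 883. IFI44L ranked 832 from the lowest and IFI44 ranked 3343. At 8 h IFI16 already ranked 306 of 11555, while ISG15 ranked 2980. In H460-vec cells at 16 h, ISG15 ranked 939 of 11592 from the highest and IFI16 ranked 8124.

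**Figure D2:**
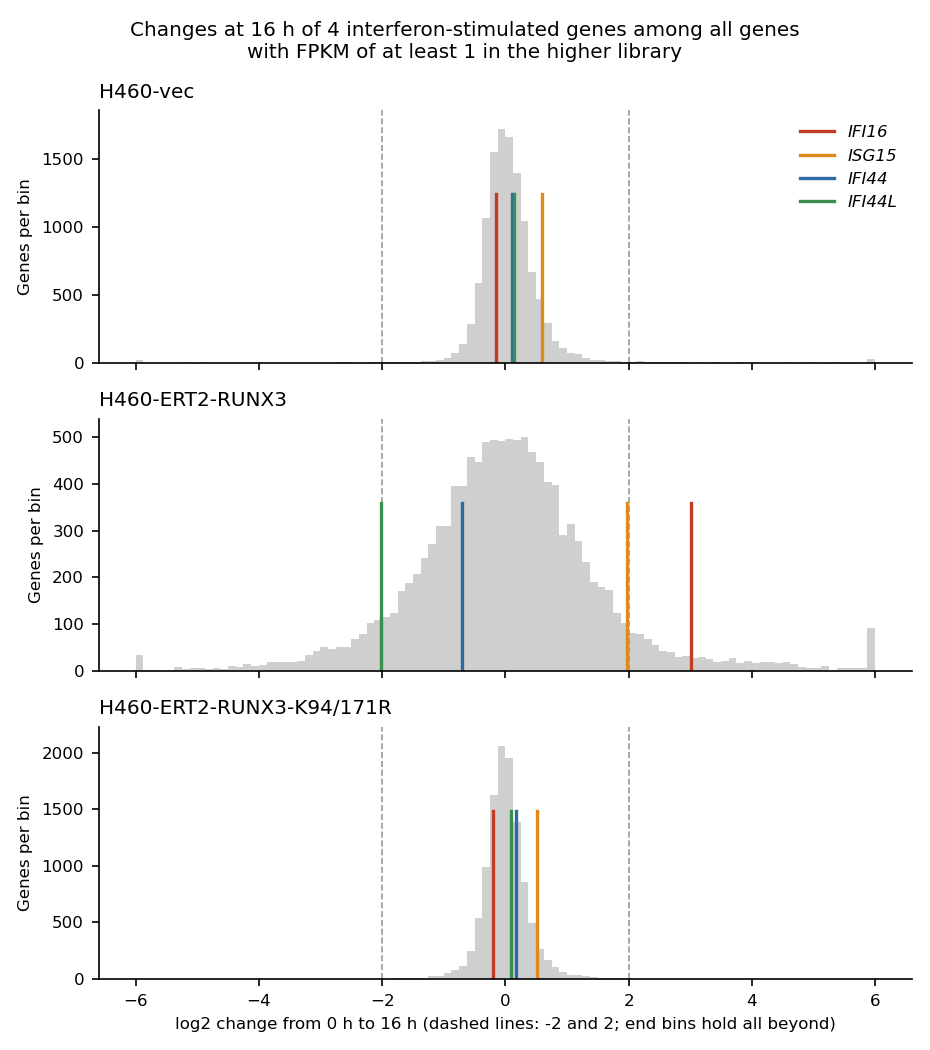
Number of genes (vertical axes) by log2 change from 0 to 16 h (horizontal axis) in each line, for genes that reached an FPKM of 1 in either library, with colored lines at the changes of IFI16, ISG15, IFI44 and IFI44L and dashed lines at -2 and 2. The distribution was broadest in H460-ERT2-RUNX3 cells, where IFI16 stood at 3.01 and IFI44L at -2.02, and in the other lines the 4 genes lay between -0.19 and 0.60.

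The other genes of the HIN-200 family were near the floor of the measurement. PYHIN1 had an FPKM of at most 0.0545 and MNDA of at most 0.0404 over the 9 libraries, and AIM2, a cytoplasmic DNA sensor, was listed at 0 in the 3 K94/171R libraries. In these libraries IFI16 was thus the family member with a level above 1. H460-vec and H460-ERT2-RUNX3 cells were used to look for genes with a like pattern. Among 507 other genes of chromosome 1 with a symbol and an FPKM of at least 1 in each of the 6 libraries of these 2 lines, those with the pattern most like IFI16 (Pearson's r of log2 FPKM over the 6 libraries) were DESI2, AGO3, PPP2R5A, LGALS8 and RPS6KC1, with r from 0.992 to 0.994. LGALS8, which encodes galectin-8, had an FPKM of 23.1, 36.3 and 93.8 in H460-ERT2-RUNX3 cells and between 14 and 18.6 in H460-vec cells. AGO3, an Argonaute protein, had 2.28, 3.47 and 6.79 in H460-ERT2-RUNX3 cells. The changes of the 5 genes at 16 h in H460-ERT2-RUNX3 cells were 0.91 for DESI2, which had the highest r, 1.55 for AGO3, 0.67 for PPP2R5A, 2.02 for LGALS8 and 1.85 for RPS6KC1, against 3.01 for IFI16. The 6 libraries come from 2 lines and are not independent samples.

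In K94/171R cells RUNX3 itself had an FPKM of 2.12, 0.712 and 2.11 at 0, 8 and 16 h, a change of -1.51 at 8 h. Reads of the fusion and of the cells' own RUNX3 gene cannot be told apart in these values, and RUNX3 was not among the genes named in the other 2 lines. Markers of epithelial cells were led by KRT8 with an FPKM of 662, 698 and 569 at 0, 8 and 16 h, and the 5 epithelial markers summed to 1637, 1561 and 1274. Of these, EPCAM was at most 0.313 and CDH1 at most 0.0227, so that the epithelial label rested on keratins. EPCAM went from 0 at 0 h to 0.248 and 0.313 at 8 and 16 h. Its changes of 2.58 and 2.86 passed the threshold at a level under 1. The 5 leukocyte markers summed to 5.46, 3.18 and 5.62, nearly all from CD14, with CD3E, MS4A1 and LCK listed at 0 and PTPRC at most 0.0155. Fibroblast markers summed to 3.60, 2.17 and 3.03 over 4 genes and were led by PDGFRB, and of the endothelial markers CDH5 was listed at 0 and PECAM1 was not matched. In the other 2 lines LCK was listed at 0 and PTPRC was at most 0.0761.

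The 38 genes covered a wide range of levels in K94/171R cells. At 0 h, 4 had an FPKM of 100 or more, 14 had at least 10, and 31 reached 1 in at least 1 of the 3 libraries. B2M, the invariant light chain of class I antigen-presenting molecules, was highest at 1268, followed by IFITM3 at 562, IFITM2 at 172, HLA-B at 156 and OAS1 at 96.7. IFI16 was the twelfth in this order, IFI44L the eighteenth and ISG15 the nineteenth. The 7 genes under 1 in all 3 libraries were MX1, MX2, GBP2, OAS2, OASL, XAF1 and AIM2, with values from 0 to 0.468. Basal levels therefore differed strongly within families, with OAS1 at 96.7 and OAS2 at 0.274 at 0 h. IFITM1, IFITM2 and IFITM3, the class I gene HLA-B, and members of the OAS and IFIT families resemble close relatives in sequence, and reads could have been divided between them in counting.

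**Figure D3:**
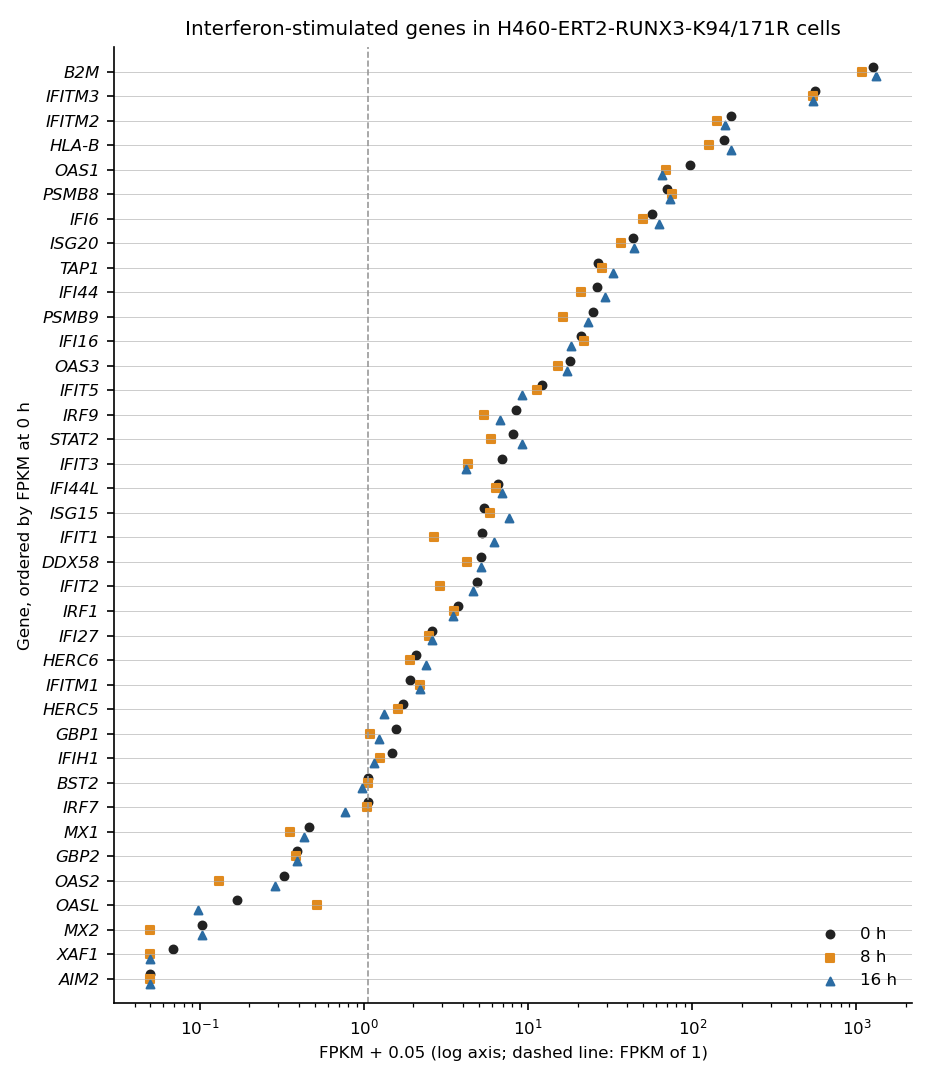
FPKM plus 0.05 on a log axis (horizontal) of the 38 genes, ordered by FPKM at 0 h (vertical), in K94/171R cells at 0, 8 and 16 h, with 1 library per point and a dashed line at an FPKM of 1. The levels run from B2M at 1268 at 0 h to AIM2, listed at 0, and the 3 points of most genes lie close together.

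None of the 38 genes was called in K94/171R cells at 8 or 16 h. Among all genes of that table, 0.493% were called up and 0.997% down at 8 h, and 0.554% up and 0.765% down at 16 h. With a threshold of 1, 1 gene was up at 8 h (OASL) and 2 were down (MX2 and OAS2), against 2.77% and 4.53% of all genes, and none was past 1 at 16 h, against 3.11% up and 3.36% down. These 3 genes had an FPKM of at most 0.468, where few reads decide a value. The median change of the 38 genes was -0.23 at 8 h (-0.11 with a pseudocount of 1) and -0.06 at 16 h. After rescaling each library to the same sum it was -0.19 and 0.026. Over the 31 of them that reached an FPKM of 1 in either library of the pair, the median was -0.22 and -0.05. All genes that reached that level had a median of 0.01 and -0.01, and of 0.04 and 0.08 after rescaling. Of the 31 genes with such a level, 26 had a lower value at 8 h than at 0 h, against 49.2% of 11252 genes, and 24 did when libraries were rescaled to the same sum, against 44.9% of genes. At 16 h 18 of 31 were lower, against 51.8% of 11325 genes, and after rescaling 12 were (38.7%), near the 38.1% of all genes. The counts at any size of change and at 0.5 were chosen after the values had been seen.

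With a change of at least 0.5 as the mark, 6 of the 31 genes were lower at 8 h, against 10.3% of all genes with that level, and none was higher, against 9.36%. The 6 were IFIT1, IFIT2, IFIT3, IRF9, PSMB9 and GBP1. At 16 h 2 were lower (IFIT3 and OAS1), against 5.67%, and 1 was higher (ISG15), against 6.82%. After rescaling, OAS1 was at -0.48 and IFIT3 alone was lower by 0.5. With a pseudocount of 1, ISG15 was at 0.44 at 16 h, and GBP1 was at -0.31 at 8 h, which left 5 genes lower by 0.5 at 8 h. Both comparisons use the same 0 h library. Of the 5 cell type markers with an FPKM of at least 1, 4 also had a lower value at 8 h, with changes of -0.10 for KRT18, -0.30 for KRT19, -0.77 for CD14 and -0.73 for PDGFRB, and KRT8 had 0.08. Of 20 other interferon signaling genes with that level, 15 were lower at 8 h, and IFNGR1 (0.39), SOCS3 (0.38), IRF3 (0.25), IFNAR2 (0.20) and TBK1 (0.08) were higher. At 16 h 4 of the 5 markers were lower, with -0.22 for KRT8, -0.75 for KRT18, -0.12 for KRT19 and -0.44 for PDGFRB, and CD14 had 0.05. Of the 20 signaling genes, 9 (45.0%) were lower at 16 h. Among all genes that reached an FPKM of 1 in either library, 51.8% were lower at 16 h. The part of single libraries in these values was not tested.

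**Figure D4:**
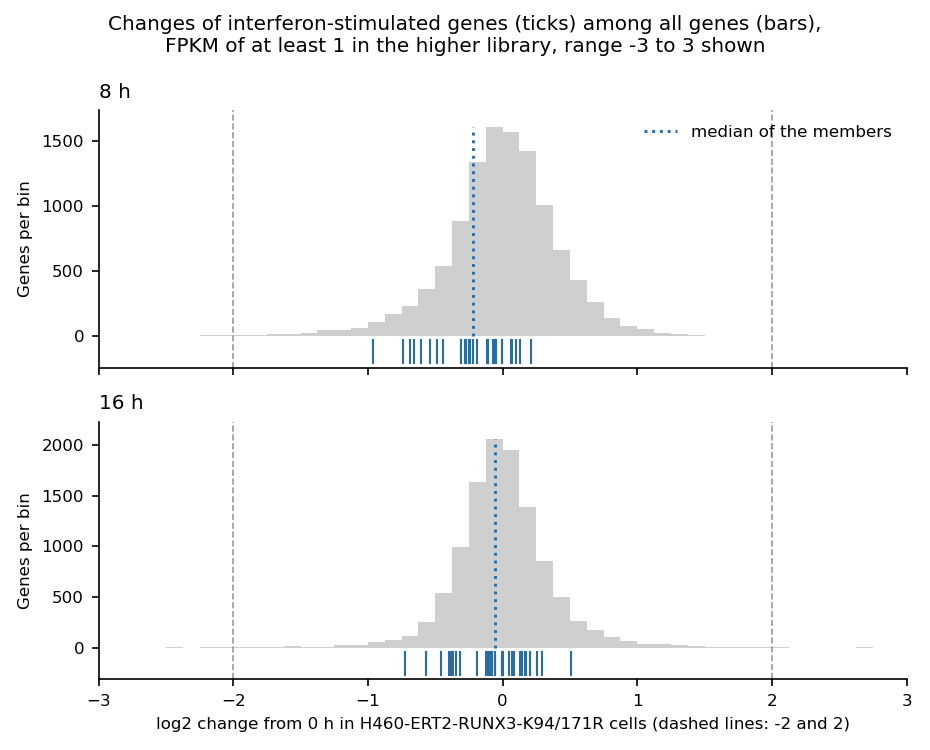
Number of genes (vertical axes) by log2 change from 0 h (horizontal axis) at 8 h and 16 h in K94/171R cells, for genes that reached an FPKM of 1 in either library, with ticks for the 31 interferon-stimulated genes and a dotted line at their median. The median was -0.22 at 8 h and -0.05 at 16 h, and no tick reached the dashed lines at -2 and 2.

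The IFIT genes encode antiviral proteins, some of which bind viral RNA. IFIT1 had an FPKM of 5.15, 2.62 and 6.16 at 0, 8 and 16 h in K94/171R cells, a change of -0.96 at 8 h. IFIT2 had 4.80, 2.85 and 4.55 and was also lowest at 8 h. IFIT3 had 6.89, 4.25 and 4.15 and so stayed low at 16 h. IFIT5 lay between 9.13 and 12.1. Of these 4 genes, all had a lower value at 8 h than at 0 h, and IFIT1 alone exceeded its 0 h value at 16 h under the deposited scaling, joined by IFIT2 when libraries were rescaled to the same sum.

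Among other antiviral effectors, OAS1, an enzyme that makes the 2-5A activator of RNase L, had an FPKM of 96.7, 69.1 and 65.1. OAS3, of the same enzyme family, lay between 15.2 and 18.0, and OAS2 and OASL were under 1. ISG20, an exonuclease, lay between 36.7 and 43.8, and IFI6, a mitochondrial protein that opposes apoptosis, between 50.0 and 62.4. IFI27 varied little, from 2.43 to 2.54. The IFITM proteins hinder the entry of viruses into cells, and IFITM3 lay between 540.0 and 561.9, IFITM2 between 142 and 172 and IFITM1 between 1.84 and 2.15. BST2, which tethers budding virus to the cell surface, lay between 0.918 and 1.01, and the ubiquitin-type ligase HERC5, which attaches ISG15 to proteins, between 1.28 and 1.68, with its relative HERC6 between 1.87 and 2.35. The dynamin-like GTPases MX1 and MX2 did not reach 0.5.

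Of the transcription factors, IRF9, the DNA-binding partner of STAT2, had an FPKM of 8.38, 5.30 and 6.72, a change of -0.66 at 8 h. STAT2 lay between 5.89 and 9.09 and was lowest at 8 h, with a change of -0.45. IRF1 lay between 3.45 and 3.67, and IRF7, a driver of type I interferon transcription, between 0.715 and 1.00. The RNA sensors DDX58, which encodes RIG-I, and IFIH1, which encodes MDA5, lay between 4.22 and 5.11 and between 1.10 and 1.44.

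Genes of antigen presentation included the highest level and had mostly small changes. PSMB9, a subunit of the immunoproteasome, had an FPKM of 24.7, 16.2 and 23.1, a change of -0.61 at 8 h. PSMB8, another such subunit, lay between 70.1 and 75.3, and TAP1, which carries peptides into the endoplasmic reticulum, between 26.7 and 32.8. HLA-B lay between 126 and 173 and B2M between 1088 and 1310, both lowest at 8 h. GBP1, a guanylate-binding protein strongly induced by interferon-gamma, had 1.52, 1.03 and 1.19, and GBP2 lay between 0.333 and 0.341. Over the 31 genes with an FPKM of at least 1 in any library, the log2 range across the 3 libraries had a median of 0.32, beside 0.37 over 11390 genes with that level.

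Another 31 genes were examined in K94/171R cells, 2 of the HIN-200 family and the rest of interferon signaling. None was called at either time, when between 0.493% and 0.997% of all genes were called in each direction. Of the 31, 20 had an FPKM of at least 1 and 8 were listed at 0 in every library. Ligands were nearly silent, since 7 of 8 were listed at 0 and IFNE, a type I interferon of epithelia, had an FPKM of 1.28, 0.678 and 0.699. All 6 receptor genes were expressed, from IFNLR1 (2.10 to 2.73) to IFNGR2 (29.5 to 33.5). Among the kinases, JAK2 lay between 1.69 and 1.84, TYK2 between 10.1 and 13.8 and JAK1 between 26.2 and 33.9. STAT3, which signals for many cytokines, lay between 9.72 and 13.5 and was lowest at 8 h.

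The sensors and adaptors were uneven in level. CGAS, the enzyme that makes the second messenger cGAMP on cytoplasmic DNA, was at most 0.0528, and STING1, its receptor, lay between 1.25 and 1.75. MAVS, TBK1 and IRF3 lay between 14.8 and 27.2, and TLR3 between 0.813 and 1.21. IKBKE, a kinase related to TBK1, could be named in all 3 lines, and in H460-ERT2-RUNX3 cells it had an FPKM of 1.73, 1.51 and 0.208. Its change of -2.79 at 16 h passed the threshold, although not with a pseudocount of 1 (-1.18). Of all genes, 5.11% were called down there at 16 h. In H460-vec cells it lay between 1.68 and 1.93 and in K94/171R cells between 1.62 and 1.76. Among inhibitors of the pathway, SOCS1 had 0.174, 0.537 and 0.714, with changes of 1.39 and 1.77 at a level under 1. SOCS3, which is also induced by other cytokines, had 79.0, 103 and 112, and USP18 and PIAS1 lay between 3.78 and 4.40 and between 7.29 and 9.15.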

How the data were processed

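The authors prepared TruSeq Stranded mRNA libraries, ran them on a NextSeq500, removed adapters with Cutadapt, and had the reads mapped to hg19 with STAR (2.5.0 in the submitters' processing notes) and quantified with Cufflinks and Cuffdiff (2.2.1). The annotation and the use of strand in counting are not given in the sources used here. The values deposited by the authors are FPKM per gene in 2 tables made separately, so changes were computed within a table. The control line, labelled H460, is called H460-vec here.

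K94/171R genes were matched through Ensembl identifiers, with DDX58 found under its current symbol RIGI. In the other table, symbols and hg19 loci (starts counted from 1) came from a supplementary list of the study, read only in part, and for IKBKE its Ensembl identifier too. All 4709 nonzero values shared by list and table had ratios within 1% of their library's median ratio. FPKM gives no read number. From steps of low values, relative depth was 0.964 to 1.17 in the first table (H460-vec at 0 h as 1) and 1.02 and 0.990 at 8 and 16 h in K94/171R cells. FPKM sums of H460-ERT2-RUNX3 cells were 554359 (0 h) and 780952 (16 h), the lowest and the highest, and lay between 566164 and 641519 in the other 7 libraries.

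Each library was its own group, and changes were computed with Python 3.11.15, numpy 2.4.6 and pandas 2.3.3. The code for changes and calls was run on 200 genes whose 0 h values were multiplied by known folds without noise. That run checks the arithmetic only, and the other code was not tested in this way. Of the 38, genes named in 3 lines were given in every library, except IFI44L, which was given by range in H460-vec and K94/171R cells. In K94/171R cells, genes with an FPKM of at least 1 in any library were given by value where a change passed 0.5 and otherwise by range, and those under 1 by count and range, some also by value beside a relative. Reported genes outside the 38 were given by value, range or change, or within a count or sum. Alternatives were pseudocounts of 1 and 0.01, a common FPKM sum, centring on the median, a threshold of 1 and a minimum FPKM of 1. 1 gene of the signaling list is not reported here. The genes and lists were chosen with earlier results of these data known.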

Additional observations from a re-analysis of the deposited data

Results flagged for a closer look

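IFI16 and IFI44L had 16 h changes past the threshold with wild-type RUNX3 and small changes of the opposite sign in both other lines. The 16 h change of IFI16 was 3.01 in H460-ERT2-RUNX3 cells and below 0 in H460-vec (-0.15) and K94/171R cells (-0.19). That of IFI44L was -2.02 in H460-ERT2-RUNX3 cells (-1.48, short of the threshold, with a pseudocount of 1) and above 0 in H460-vec (0.14) and K94/171R cells (0.08). With 1 library per line and time, neither difference between lines was tested. The values of the other lines did not pass any threshold used, and for IFI44L in H460-vec cells the value was 0.04 after rescaling to a common FPKM sum.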

How the results depend on the processing

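With 1 library per condition, no library could be left out, and depth is unknown, so values under an FPKM of 1 are the least certain. A change was taken as moved when it shifted by more than 1.5-fold, a median when it shifted by more than 0.1 and a count when it shifted by more than 1.5 times. Rescaling to a common FPKM sum lowered the median change of all genes in H460-ERT2-RUNX3 cells by 0.18 (8 h) and 0.49 (16 h) and by 0.11 at 16 h in H460-vec cells, and raised it in K94/171R cells by 0.04 at 8 h and 0.09 at 16 h. IFI16 at 16 h in H460-ERT2-RUNX3 cells was then 2.52, ISG15 1.49, IFI44 -1.19 and IFI44L -2.50.

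Of 108 changes and medians, 107 held under rescaling (all but the 16 h median below), 108 under centring, 102 with a pseudocount of 1 and 105 with 0.01. Rescaling and centring shift all genes of a line by nearly the same amount. These shifts were at most 0.49 and 0.02 in size, short of the limit of 0.585 (1.5-fold). No single change could therefore count as moved under either setting, and those counts do not measure robustness. The 16 h median shifted by less than 0.1 under rescaling and was set apart because its sign turned. Single genes whose sign turned were counted as held. The alternatives for IKBKE, for differences between lines and for counts at 0.5 or any size were chosen after the data had been seen. The median of the 38 genes in K94/171R cells was -0.11 at 8 h with a pseudocount of 1, and at 16 h it turned to 0.026 under rescaling, when the count lower by at least 0.5 was 1. Signs turned for 11 values under rescaling, none larger than 0.09 in size before it, and for 3 under centring. With a pseudocount of 0.01, 1 gene (MX2) was called down at 8 h in K94/171R cells. With a pseudocount of 1, 0 genes were called down at 16 h in H460-ERT2-RUNX3 cells. A threshold of 1 called 1 gene up and 2 down at 8 h in K94/171R cells, against 2.77% and 4.53% of all genes. With wild-type RUNX3 it called 1 up at 8 h and 2 up at 16 h, against 4.4% and 14.3% of all genes. The cause of these shifts was not tested.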
